A study of Mus musculus with 5 samples.

Results

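The TRIM (tripartite motif) genes of mouse macrophages were examined in tumours that the host's T cells could or could not recognise. Members were all genes whose platform annotation symbol is Trim followed by a digit, each read from its probe set with the highest mean log2 signal over the 5 arrays. This gave 58 genes, represented by 111 probe sets, of 18193 genes with a probe set of their own. Signals below 4.79, the 25th percentile of all scaled signals, were raised to that floor. Trim42, Trim72 and Trim75 stood at the floor on all 5 arrays and were not tested, and the other 55 genes were.

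Most TRIM proteins have a RING finger that attaches ubiquitin to target proteins, 1 or more B-boxes and a coiled coil. A C-terminal part follows that differs between subfamilies and selects the target. Some members, such as Trim14 and Trim29, lack the RING finger. Many members with a PRY-SPRY domain at that end are induced by interferons, and several of them tune the cytosolic sensing of viral nucleic acid or bind viral particles directly. Other members repress transcription, bind microtubules or turn over muscle proteins.

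All mice were adult Balb/c SCID animals aged 7 to 12 weeks that carried a transgenic T-cell receptor specific for the idiotype of the myeloma line MOPC315, a piece of the antibody which that line makes. SCID mice form few B and T cells other than those the transgene allows. Myeloma cells were injected under the skin in Matrigel, a gelled matrix, and CD11b+ cells were sorted from the plugs on day 8. The tumoricidal group (3 arrays) came from plugs with MOPC315 and the control group (2 arrays) from plugs with an antigen-loss variant of it, and the labels call the arrays of each group biological replicates.

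Macrophage markers were present in both groups: the summed signal of 9 measured markers ran from 23302 to 35036 on tumoricidal and from 21483 to 27706 on control arrays. Markers of other cell types were measured too, and several differed between the groups. Summed signals of 5 of 6 natural killer markers ran from 1075 to 2848 on tumoricidal against 195 to 489 on control arrays, and all 5 genes were higher on every tumoricidal array. The 5 of 7 measured T-cell markers summed to between 73.2 and 915 against 39.0 to 71.8, with 3 of them fully apart. The high end was tumoricidal replicate 2 alone, as Cd3d shows with 22.8, 397 and 20.8 against 30.0 and 11.3. The 5 of 7 neutrophil markers summed to between 8971 and 10038 against 3835 to 6400.3, with 3 (S100a8, S100a9 and Cxcr2) fully apart. Most of that sum was S100a8 and S100a9, with means of 4445 and 4957 on tumoricidal arrays. Mpo and Elane overlapped between groups, with log2 differences, tumoricidal minus control, of -0.29 and -0.35. The 8 of 9 plasma-cell or myeloma markers summed to between 3591 and 4882 against 5631 to 6287, with 5 of them lower on every tumoricidal array and 2 higher. No marker in these 5 lists was at the floor on all arrays, and the part of these cells in the TRIM values was not tested. In such bulk samples fewer cells of a type and less RNA per cell cannot be told apart. Signals of spiked-in transcripts divided the 5 arrays into side A (tumoricidal replicates 1 and 2, control replicate 1) and side B (tumoricidal replicate 3, control replicate 2): BioC signals on side B were 0.257 times those on side A among tumoricidal and 0.281 times among control arrays, and Lys signals 2.20 and 1.72 times. Of 8 spiked transcripts, 4 (BioB, BioC, BioDn and Cre) were lower on side B in both groups, Dap, Lys and Phe were higher, and Thr was 1.87 times among tumoricidal and 0.945 times among control arrays.

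No TRIM gene passed the test between tumoricidal and control macrophages, while 5 of 26 interferon-gamma genes (Cxcl9, Gbp2, Gbp6, Gbp8 and Slamf8) did and rose. The highest TRIM differences belonged to Trim12a, Trim21, Trim62 and Trim30d. Limma called 0 of 55 TRIM genes at an adjusted p under 0.05, where 0.0527% of 17074 genes were called higher in tumoricidal macrophages and 0.0117% lower (0.0341% and 0.0171% of all 41053 probe sets). P-values here measure the spread between these arrays only. At an unadjusted p under 0.05, 8 TRIM genes (14.5%) were higher and 0 were lower on the probe sets used, against 6.12% and 2.79% of all genes. Every tumoricidal array exceeded both control arrays for 11 TRIM genes, or 20%, against 17% of all genes, a share near the background. Trim32 and Trim56 lay below both control arrays on all 3 tumoricidal arrays, where 6.51% of all genes did. The median log2 difference, tumoricidal minus control, was 0.12 over the 55 TRIM genes and 0.13 over all genes tested, and with the deposited scaling these were -0.069 and -0.068. Trim12a, Trim21 and Trim62 reached a difference of 1, as 4.23% of all genes did, and 0 TRIM genes were at or under -1 (2.57% of all genes).

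**Figure D1:**
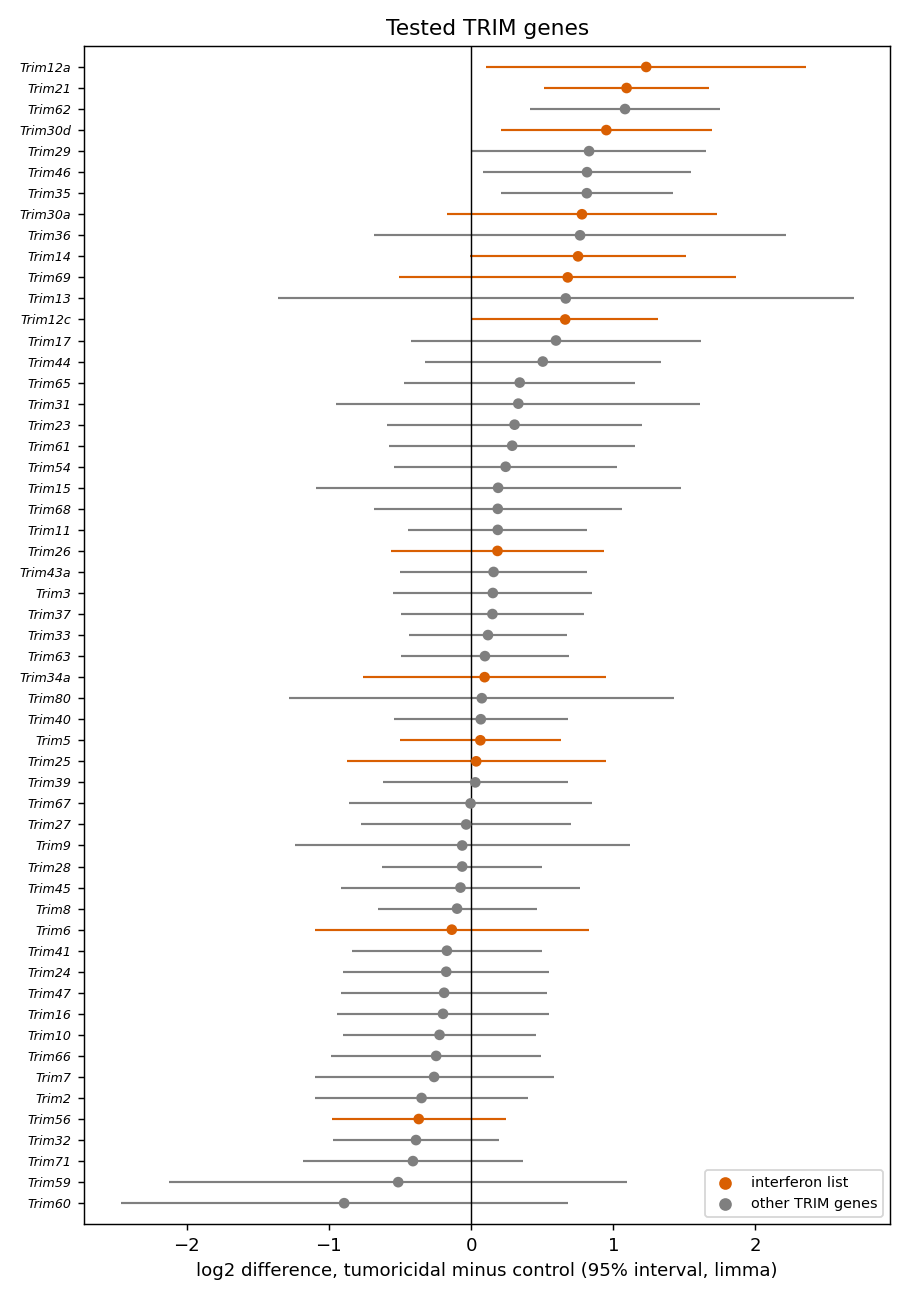
Log2 difference, tumoricidal minus control, with its 95% interval from limma for the 55 tested TRIM genes, in order of size; orange marks the list of interferon-inducible members. Most intervals cross 0, and Trim12a, Trim21, Trim62 and Trim30d stand at the top.

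Members known to respond to interferon were then set beside the rest of the family. Of 16 TRIM genes listed as interferon-inducible in mouse myeloid cells, 13 had a probe set of their own, while Trim30b, Trim30c and Trim34b are not analysed here. Their median log2 difference was 0.66, and 11 of 13 were positive, against a median of 0.09 with 24 of 42 positive among the other TRIM genes. Groups did not overlap, tumoricidal higher, for 5 of the 13 (38.5%) and for 6 of the other 42 (14.3%), against 17% of all genes. At an unadjusted p under 0.05, 4 of the 13 (30.8%) and 4 of the 42 (9.52%) were higher, against 6.12% of all genes. On side A of the spike-in split the median of the listed genes was 0.19, against 0.20 over all genes. On side B it was 0.44, against 0.066. These are descriptions of the 2 sets, and the difference between them was not tested.

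Trim21, a cytosolic antibody receptor that sends antibody-coated virus to the proteasome, gave the lowest p-value of the family. The tumoricidal arrays, in the order of replicates 1 to 3 used throughout, read 289.8, 279 and 238, and the control arrays 126 and 125. The groups were well apart, with little spread inside either. The log2 difference was 1.09 (SE 0.24, limma adjusted p = 0.292), and it stayed between 1.04 and 1.18 when any single array was left out. Another Trim21 probe set read 203, 156 and 209.7 against 76.1 and 100.7 and was apart as well (limma adjusted p = 0.372).

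Trim30a and Trim30d are rodent paralogues, the former known to restrain NF-kB signalling by degrading the adaptors TAB2 and TAB3. Trim30d had 398, 262 and 418 on tumoricidal against 172 and 193 on control arrays. Its groups were apart on both of its probe sets, with a difference of 0.95 (SE 0.30, limma adjusted p = 0.505) on this one and 286, 186 and 176 against 132 and 73.9 on the other. Trim30a had 3784, 2896 and 2215 against 2276 and 1249, so that tumoricidal replicate 3 lay just under control replicate 1. The log2 difference was 0.78 (SE 0.38, limma adjusted p = 0.739), and it was 0.35 when control replicate 2 was left out and 1.21 when control replicate 1 was. On its other probe set the signals were 1151, 1136.5 and 828 against 552 and 483, where the groups were apart (difference 0.99, SE 0.27). As paralogues they may share probe signal, and a further probe set assigned to both is not counted for either.

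Trim12a and Trim12c are mouse relatives of the primate retrovirus restriction factor TRIM5. Trim12c had 240.0, 256 and 340.4 on tumoricidal against 171 and 178 on control arrays, which were apart by 0.66 on the log2 scale (SE 0.26, limma adjusted p = 0.618). Its second probe set had overlapping groups. Trim12a was near the floor: 11.2, 23.1 and 16.1 against 4.79, the floor itself, and 9.80. The groups were apart, and as 1 control array was at the floor, the fitted difference of 1.23 (SE 0.45, limma adjusted p = 0.585) depends on the floor. It was 0.72 without control replicate 1 and 1.75 without control replicate 2, and the other Trim12a probe set was at the floor on 4 arrays. Trim14, a RING-less adaptor of the antiviral protein MAVS at mitochondria, had 405, 271 and 311 against 160.0 and 231. All its tumoricidal arrays were above both control arrays (log2 difference 0.75, SE 0.31, limma adjusted p = 0.638). The difference was 0.49 without control replicate 1, and a dim second probe set had overlapping groups.

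The remaining listed members did not separate the groups upwards. Trim25, which ubiquitinates the RNA sensor RIG-I, had 597, 431 and 817 on tumoricidal and 475 and 709 on control arrays. The values interleave, with side B arrays the highest of each group, and the log2 difference was 0.04 (95% interval -0.87 to 0.95). Trim26, which acts on IRF3 and its upstream kinase, differed by 0.19 (interval -0.56 to 0.94), and Trim34a by 0.10 (interval -0.76 to 0.95). All 3 were within the shift that the choice of scaling gives every gene, and stood at -0.19, -0.043 and -0.13 with the deposited scaling. Trim56, which promotes signalling through the DNA-sensing adaptor STING, had 84.3, 95.7 and 77.5 against 121 and 100.4. On the probe sets used for the members it was the only listed one below both control arrays throughout, at -0.37 on the log2 scale (SE 0.25, limma adjusted p = 0.799).

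The dim members of the list gave little. Trim6, which makes unanchored ubiquitin chains in type I interferon signalling, differed by -0.14 (SE 0.39), and its dimmer probe set by -1.07 (SE 0.36, limma adjusted p = 0.531) with tumoricidal replicates 1 and 3 at the floor and the groups apart downwards. Trim69, another antiviral member, had 16.9, 8.57 and 11.1 against 11.2 and 4.79 (difference 0.68, SE 0.48), and 0.07 without control replicate 2. Trim5 was above the floor in tumoricidal replicate 3 alone.

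**Figure D2:**
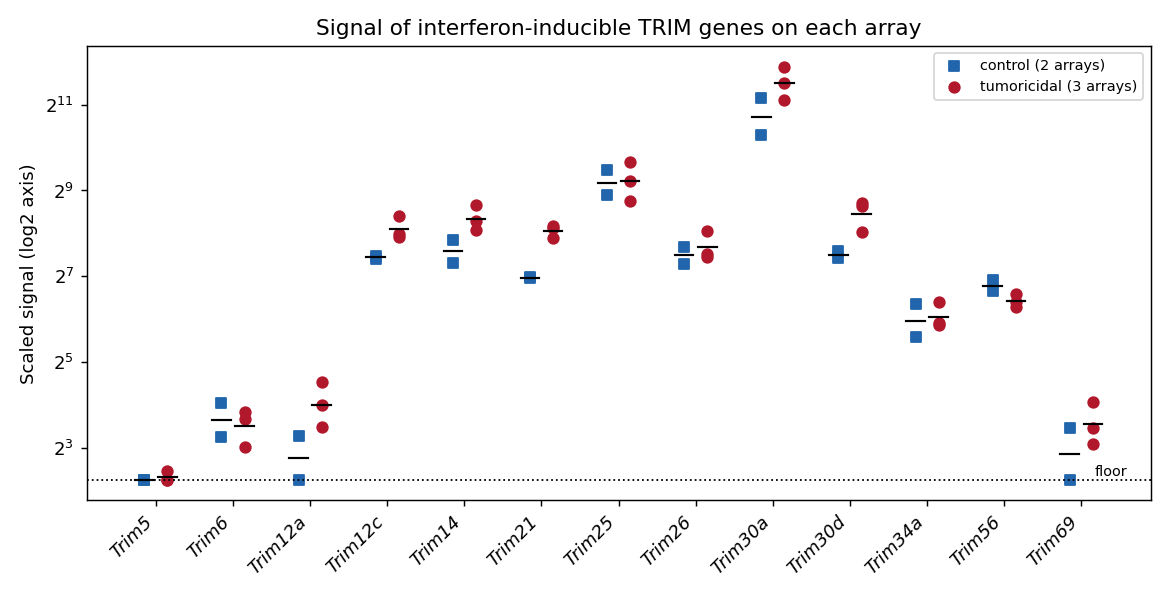
Scaled signal on a log2 axis for the 13 measured TRIM genes of the interferon list; squares are the 2 control arrays, circles the 3 tumoricidal arrays, bars the mean of log2 values and the dotted line the floor of 4.79. Levels are to be read within a gene only: Trim21, Trim30d, Trim12c, Trim14 and Trim12a are fully apart upwards, and Trim56 downwards.

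Promoters were searched for the motifs through which interferons act. RefSeq sequence upstream of the start site (build GRCm38.p6, of C57BL/6J mice, while these animals were Balb/c) was found for 47 of 58 members, in 61 windows of 250 bases. The core of the interferon-stimulated response element, GAAA followed by any 2 bases and GAAA again, on either strand, was in the windows of 5 of 12 listed TRIM genes (41.7%) and 0 of 35 other TRIM genes, against 3.46% of 27018 genes. The 5 were Trim5, Trim12c, Trim26, Trim30a and Trim30d. The core of the interferon-gamma activated site, TTCNNNGAA, which reads alike on both strands, was in 0 of 12 listed and 4 of 35 other TRIM genes, against 8.13% of all genes. Among interferon-gamma genes with a window, 10 of 19 held the former and 8 of 19 the latter. A match is a description of letters and not a site of binding. Trim26 and, on its brighter probe set, Trim30a hold the response element core without a separation of the groups. Trim5 holds the core too, but was at the floor on 4 arrays, so a separation could not be judged. Trim21 has a separation and no match in its window. The windows below, each of 100 bases, show where the matches lie, with matched letters in capitals. They are written 5′ to 3′ on the gene's strand and end 1 base before the start site, except that of Trim26, which lies further upstream. Trim21 is shown as the member with the lowest p-value and no match.
Trim30a (chr7:104465194-104465293, minus strand): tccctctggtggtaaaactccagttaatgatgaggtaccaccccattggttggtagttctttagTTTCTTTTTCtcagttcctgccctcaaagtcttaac
Trim30d (chr7:104507850-104507949, minus strand): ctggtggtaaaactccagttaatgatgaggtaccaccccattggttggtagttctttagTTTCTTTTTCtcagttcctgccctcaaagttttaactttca
Trim12c (chr7:104353350-104353449, minus strand): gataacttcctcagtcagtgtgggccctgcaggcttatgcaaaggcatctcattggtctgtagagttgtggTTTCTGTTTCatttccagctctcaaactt
Trim26 (chr17:36836946-36837045, plus strand): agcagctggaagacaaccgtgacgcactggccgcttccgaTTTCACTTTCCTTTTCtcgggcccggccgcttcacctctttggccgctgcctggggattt
Trim21 (chr7:102565483-102565582, minus strand): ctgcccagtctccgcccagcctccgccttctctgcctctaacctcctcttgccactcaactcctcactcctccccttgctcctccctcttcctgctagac

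In all 4 windows shown above with a match the motif is on the strand opposite to the gene, and that of Trim26 holds 2 overlapping copies. The windows of Trim30a and Trim30d were identical at 226 of 245 bases compared without gaps (92.2%), the motif included, and the 2 genes had log2 differences of 0.78 and 0.95. In RefSeq gene order Trim6, Trim34a, Trim5, Trim12a, Trim34b and Trim12c lie next to each other, and so do Trim30b, Trim30c, Trim30a and Trim30d. Within the first run the log2 differences were -0.14 for Trim6, 0.10 for Trim34a, 0.07 for Trim5, 1.23 for Trim12a and 0.66 for Trim12c. Their 95% intervals overlap, and differences between neighbours were not tested. In another run, Trim26, Trim15, Trim10, Trim40 and Trim31, differences ran from -0.22 for Trim10 to 0.33 for Trim31, and the groups overlapped for each.

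Outside the interferon list, 6 of 42 members were higher on every tumoricidal array, 14.3% against 17% of all genes, among them Trim62, Trim35, Trim46 and Trim29. Trim35, which acts on IRF7 and on pyruvate kinase, had 454, 462 and 463 against 228 and 299. This was a tight separation on a bright probe set (log2 difference 0.81, SE 0.24, limma adjusted p = 0.477), and its 2 dimmer probe sets gave 0.46 and 0.42 with overlapping groups. Trim62, which ubiquitinates the Dectin-pathway adaptor CARD9, had 22.2, 23.9 and 29.6 against 13.5 and 10.3 (difference 1.08, SE 0.27, limma adjusted p = 0.372). Its other probe sets gave 0.15 and -0.14, so the Trim62 difference rests on 1 probe set, whose name carries the suffix that Affymetrix uses for probes that may match other transcripts.

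Trim46, a microtubule organiser of the neuronal axon, was dim and apart, with 16.5, 11.1 and 17.1 against 7.65 and 9.0 (difference 0.82, SE 0.30, limma adjusted p = 0.578). Trim29, a RING-less protein best known from epithelia, had 18.2, 20.5 and 19.1 against 14.8 and 7.90 (difference 0.83, SE 0.33, limma adjusted p = 0.620). Its difference was 0.38 without control replicate 2 and 1.28 without control replicate 1. Of 4 keratinocyte markers, 1 was higher on every tumoricidal array, and their summed signal ran from 49.5 to 90.4 against 43.8 to 49.1; its part in the Trim29 value was not tested. Trim17 (0.60) and Trim33 (0.12) were the other 2 members apart upwards, and Trim17, close to the floor, was at 0.23 without tumoricidal replicate 1. Another Trim33 probe set was apart downwards (-0.47, SE 0.32).

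The corepressor, NHL-repeat, COS-box, muscle, ARF, MATH, transmembrane, erythroid and RING-less classes held no member with a difference beyond 1. Over all genes 4.23% were at 1 or above and 2.57% at -1 or below. With 1 to 5 tested genes in each class, a count of 0 is near that background. The nuclear corepressors of the TIF1 class, Trim24, Trim28, Trim33 and Trim66, had differences from -0.25 to 0.12. Trim28, the corepressor that zinc finger proteins recruit to silence retroelements, had 467, 492 and 511 against 481 and 543, and its difference was -0.06 (95% interval -0.63 to 0.50). The NHL-repeat class ran from -0.41 for Trim71, a stem-cell factor above the floor on 1 array of its probe set, to 0.15 for Trim3, and Trim32, a ligase linked to muscular dystrophy, lay at -0.39 with the groups apart. Of the striated muscle ligases, Trim54 (0.24) and Trim63 (0.10) were each above the floor on 1 array, and Trim72 on none. The single members of the ARF class, Trim23 (0.31, SE 0.36), and of the MATH class, Trim37 (0.15, SE 0.26), overlapped between groups. Trim13, which sits in the endoplasmic reticulum membrane, gave 40.1, 25.5 and 42.1 against 8.36 and 58.3, a difference of 0.67 (SE 0.82) that was -0.73 without control replicate 1 and 2.07 without control replicate 2. Trim10, of erythroid cells, differed by -0.22. The lowest value of the family was -0.89 (SE 0.63) for Trim60, with overlapping groups.

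Probe sets of the same gene often disagreed. Of 31 members with several tested probe sets, 11 had only positive differences, 6 only negative and 14 both signs. Trim21 and Trim30d were the members for which every one of several tested probe sets had its groups apart upwards. Of 105 tested TRIM probe sets, 55 were used for the members. Among the remaining ones, those of Trim21, Trim30a and Trim30d were higher at an unadjusted limma p under 0.05. Lower at that threshold, with groups apart, were those of Trim41 (-0.61), Trim7 (-0.98) and Trim6 (-1.07). Over all genes, read from 1 probe set each, 6.12% were higher and 2.79% lower at that threshold. These few probe sets are thus not read as a result about the family. The Trim7 and Trim6 probe sets had tumoricidal arrays at the floor.

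The members were also set beside interferon-responsive genes outside the family. A gene was said to follow interferon where all tumoricidal arrays lay above both control arrays and the log2 difference was at least 1 overall and on each side of the spike-in split. This held for 23 of 26 measured interferon-gamma genes (88.5%), for 4 of 25 type I interferon genes (16%) and for 2.27% of all genes. It held for 0 of 55 TRIM genes. The lists and the rule were chosen with earlier results of these data known, so the interferon-gamma share is no independent benchmark. The rule contains no measure of interferon, and 5 of 5 natural killer and 3 of 5 T-cell markers met it too. Trim21 came close with 1.17 on side A and 0.93 on side B, and so did Trim30d with 0.91 and 1.12.

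A looser rule, groups apart and a difference of at least 0.5 on each side, was chosen after the values were seen. It held for 7 TRIM genes (12.7%): Trim12a, Trim12c, Trim21, Trim30d, Trim35, Trim46 and Trim62. They make up 4 of the 13 listed members (30.8%) and 3 of the other 42 (7.14%), against 7.34% of all genes, 14 of 25 type I genes (56%) and 25 of 26 interferon-gamma genes. It also held for 5 of 5 natural killer, 3 of 5 T-cell and 3 of 5 neutrophil markers. With the deposited scaling Trim21, Trim30d and Trim46 met it.

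**Figure D3:**
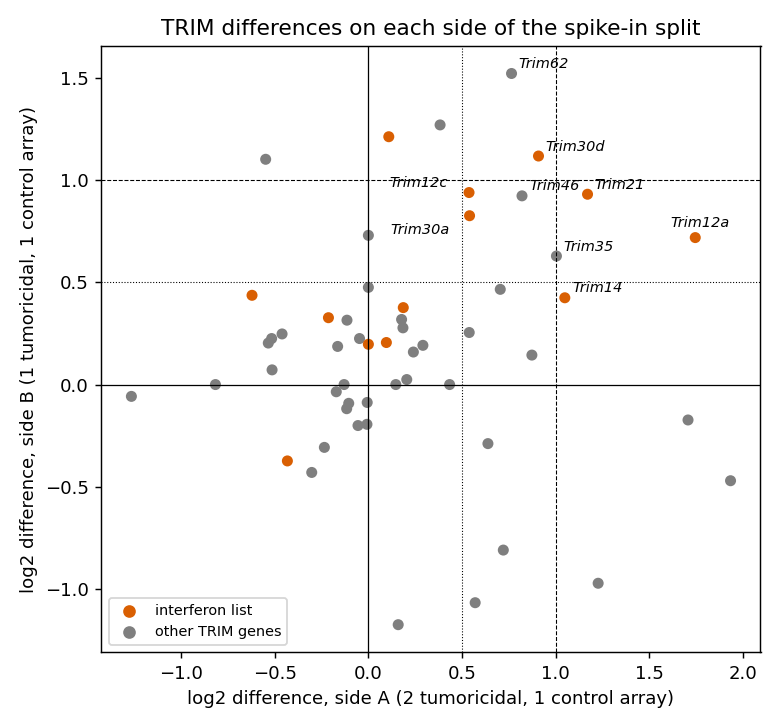
Log2 difference of each tested TRIM gene on side A against side B of the spike-in split; dashed lines mark 1 and dotted lines 0.5 on both axes, and orange marks the interferon list. No gene lies in the corner beyond both dashed lines; Trim21 and Trim30d are next to it.

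The median difference was 2.45 over the interferon-gamma genes, 0.79 over the type I genes and 0.66 over the listed TRIM genes. By array, relative to the control mean, the median listed TRIM gene stood at 0.46, 0.45 and 0.57 in tumoricidal replicates 1 to 3, the interferon-gamma genes at 2.64, 2.17 and 2.64 and the type I genes at 1.19, 0.56 and 0.73. Every tumoricidal array was thus above the control mean in all 3 lists. Cxcl9, the interferon-gamma gene with the highest difference, stood at 6.02 (SE 0.31, limma adjusted p = 0.0270).

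**Figure D4:**
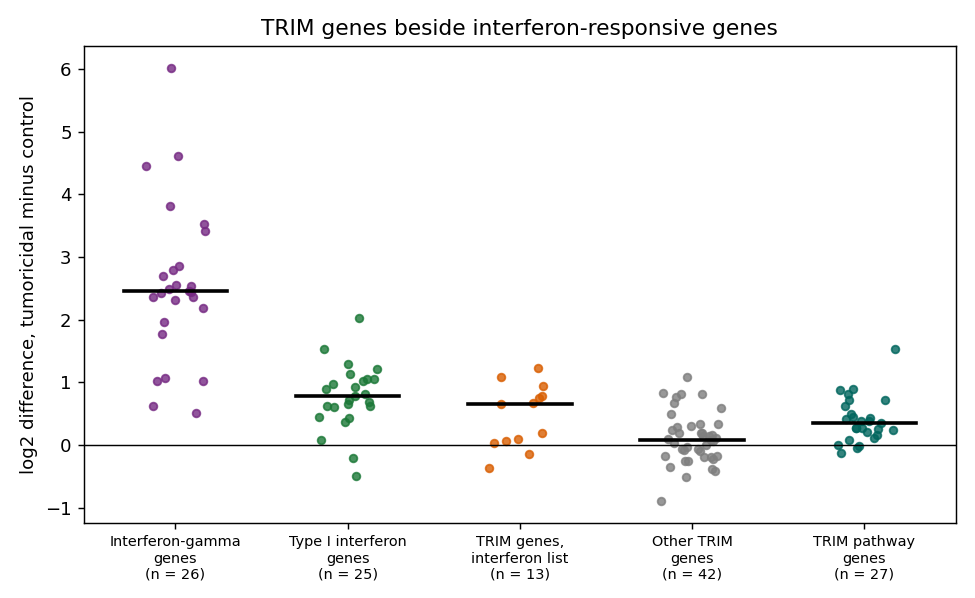
Log2 difference, tumoricidal minus control, of each tested gene in 5 lists, with the median as a black line. Some genes are in both the type I and the TRIM pathway list. The interferon-gamma genes have the highest median, 2.45, the listed TRIM genes have 0.66 and the other TRIM genes 0.09.

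Genes that work with TRIM proteins were measured as well: 27 of 31 listed had a tested probe set, limma called 0 of them, and 5 (18.5%) were higher and 0 lower at an unadjusted p under 0.05, against 6.12% and 2.79% of all genes. Groups were apart upwards for 11 (40.7%, against 17% of all genes), and the median difference was 0.35, against 0.13. Ddx58, Herc6, Ifih1, Irf7 and Usp18 are also on the type I interferon list, so these shares are not separate from those of that list. Among the enzymes that add or remove ISG15, a ubiquitin-like modifier, the values were for the ligase Herc6 1.53 (SE 0.27, limma adjusted p = 0.211), the protease Usp18 0.89, the conjugating enzyme Ube2l6 0.88 and the activating enzyme Uba7 0.73. All 4 were apart upwards. The RNA sensors Ifih1 (0.82) and Ddx58, which encodes RIG-I (0.62), were apart too. The substrates of Trim30a, Tab2 (-0.01, SE 0.27) and Tab3 (0.11, SE 0.26), overlapped between groups, as did Irf3 (0.01, SE 0.29), Mavs (0.16) and Tbk1 (0.27). Of 7 measured ubiquitin-conjugating enzymes and partners with which ligases build chains, Ube2n (0.42), Ube2v1 (0.49) and Ube2w (0.45) were apart upwards, and Ube2d1 (0.26), Ube2d3 (0.28), Ube2e1 (0.38) and Ube2k (0.27) overlapped.

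TRIM proteins whose genes carry another symbol were kept apart from the members. Pml, the organiser of nuclear bodies and a known interferon target, had 176, 150.4 and 239 against 108 and 112, with the groups apart (log2 difference 0.75, SE 0.29, limma adjusted p = 0.599). Mefv, which encodes pyrin, had 281, 326 and 474 against 445 and 534, and its values overlapped (difference -0.47, SE 0.31). Mid1 and Mid2 were dim and overlapped, and Cmya5 was at the floor on all arrays.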

How the data were processed

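Biotinylated cRNA from 6 µg of total RNA was hybridised to Affymetrix arrays, per the labels' protocols. The deposited values are linear intensities, 1 for each probe set and array. Their software, probe summary and scaling method were not given in the sources used here. Their trimmed mean was 100.001 on every array, so they had already been brought to a common level. The largest array median was 1.47 times the smallest, and each array was rescaled to the median of these medians, which replaced the deposited scaling. This raised every difference, tumoricidal minus control, above the floor alike, as for Trim21 from 0.86 to 1.09. The 64 control probe sets were removed, signals under the 25th percentile (4.79) were raised to it and log2 was taken. The 3984 probe sets at the floor everywhere were left out and 41053 were tested with limma 3.58.1 in R 4.3.3 (lmFit, eBayes, no covariate, two-sided, Benjamini-Hochberg), a script tested on simulated data.

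Symbols came from the platform annotation. The 5 probe sets with a Trim and another symbol name no member. Arrays give no counts, so their number limits precision. An exact permutation of 3 against 2 arrays cannot go below p = 0.2 and was not used.

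Members, lists and rules were chosen with earlier results of these data known. Named genes are the listed interferon-inducible members, others with an absolute difference of at least 1 or non-overlapping groups with at least 0.5, and the member with the largest difference of each structural class; further ones were picked after their values were seen.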

Additional observations from a re-analysis of the deposited data

How the results depend on the processing

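Limma called 0 TRIM genes under every alternative and with any single tumoricidal array left out. There 2 to 9 had an unadjusted limma p under 0.05. The lowest limma adjusted p ranged from 0.109 (floor at the 50th percentile) to 0.908 (replicate number as a block). The alternatives were the deposited scaling, quantile normalization, floors at the 10th and 50th percentiles, only probe sets above the median and no filter. Further ones were a variance trend and the replicate number or the spike-in split as a block. With the floor at the 10th percentile, either block or a tumoricidal array left out, 0 probe sets of the whole array were called. In those fits no gene of any kind passed, so 0 TRIM genes there is no result about the family. Under the other alternatives 19 to 193 probe sets were called. The median over a gene's probe sets has no test and gave a TRIM median of 0.098. There Trim12a stood at 0.63, Trim17 at 0.19, Trim35 at 0.46 and Trim62 at 0.15. The dim members also depended on the floor. With it at the 50th percentile Trim12a stood at 0.12, Trim29 at 0.10 and Trim62 at 0.48, and Trim46 was not tested. Trim21, Trim30d and Trim35 kept their main values there. The median over TRIM genes was -0.069 with the deposited scaling, which moved that of all genes from 0.13 to -0.068, and from 0.05 to 0.18 over arrays left out. The listed TRIM genes kept a median above that of the other members under these scalings, floors, filters, blocks and arrays left out. It ran from 0.35 without control replicate 2 to 0.75 with the floor at the 10th percentile. Within side A it stood at 0.19, against 0.073 for the other members and 0.20 for all genes. Within side B it stood at 0.44, against 0.048 for the other members and 0.066 for all genes. The rule for following interferon held for 0 to 1 genes over arrays left out (Trim30d without tumoricidal replicate 2); it could not be applied without tumoricidal replicate 3 or either control array. The looser rule held for 3 genes with the deposited scaling and 4 with the floor at the 50th percentile.

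The deposited scaling lowered every difference above the floor alike, so that Trim25 stood at -0.19, Trim26 at -0.043, Trim34a at -0.13 and Trim37 at -0.079. Other signs that turned had causes that were not tested. With quantile normalization Trim25 at -0.25 and Trim26 at -0.012. Within side B Trim10 stood at 0.072, Trim13 at -0.47, Trim6 at 0.44 and Trim66 at 0.23, and within side A Trim34a at -0.21. Over arrays left out Trim6 ran from -0.54 to 0.27, Trim10 from -0.51 to 0.071, Trim13 from -0.73 to 2.07, Trim23 from -0.11 to 0.72, Trim25 from -0.25 to 0.33, Trim26 from -0.0054 to 0.38, Trim34a from -0.29 to 0.48 and Trim37 from -0.039 to 0.34. Deviations of same-numbered arrays from their group means correlated at r = 0.02 for number 1 and -0.24 for number 2. With 2 control arrays the control deviations mirror each other, so these values cannot decide whether the numbers pair the samples. With the replicate number as a block the TRIM median was 0.07 and Trim25 and Trim26 turned to -0.19 and -0.0050.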
